A study of Mus musculus with 24 samples.

Results

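Depp1, a small protein-coding gene known as a transcriptional target of FoxO factors, was followed in C2C12 myotubes together with 9 further genes of the FoxO and muscle atrophy pathway. These were the FoxO factors Foxo1, Foxo3 and Foxo4, the ubiquitin ligase genes Fbxo32, Trim63 and Fbxo30, and Klf15, Irs2 and Otud1. Depp1 was chosen because its level was so much lower after electrical stimulation, and the question was whether other FoxO genes and targets moved with it. The other 9 genes were named for what they are known to do, but with earlier results of these data known. All 10 were among the 55487 genes listed in the data and all 10 were among the 14541 genes that entered the tests.

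The libraries came from wild-type C2C12 cells, a mouse myoblast line, which had been differentiated to myotubes under 5 % O2 and were taken on day 5. There were 4 groups of 6 libraries, described as biological replicates of the culture. The myotubes spent 2 h under 5 % or 1 % O2. They were left unstimulated (5 % CTRL, 1 % CTRL) or were then given repeated short bouts of electrical pulses (5 % STIM, 1 % STIM). Stimulated cultures were harvested immediately after the last bout, so no later time was measured, and the medium was replaced around the stimulation. Whether unstimulated cultures had the same medium changes, or the same total time at their O2 level, is not given in the sources used here. Stimulation, a change of medium and the added time of the bouts thus cannot be told apart in these data. Where stimulation is said below to raise or lower genes, this names the difference between stimulated and unstimulated groups, not its source. Levels are given as normalized read counts, which are the reads of a gene divided by the size factor of the library, so that libraries of different depth can be compared. Fold changes were estimated with limma on log2(normalized count + 1) and are followed by their standard error (SE). P-values measure the spread between these cultures. A gene was called when its Benjamini-Hochberg adjusted p over all genes tested was under 0.05.

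FoxO proteins are transcription factors that insulin and growth factors hold in check through PI3K and AKT, since AKT phosphorylates them and keeps them out of the nucleus. In skeletal muscle, active FoxO factors are known to switch on ubiquitin ligases and autophagy genes that drive the loss of muscle protein. The ligases atrogin-1 (Fbxo32) and MuRF1 (Trim63) are the classical markers of muscle atrophy.

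The libraries held 26541858 to 28173745 reads. Relative to the level, counting error was largest for Klf15. It was not small for Depp1 and Irs2, which each fell to 86 reads in their lowest libraries. Replicate 1 of 1 % CTRL stood apart, with a root mean square deviation of 0.373 (log2) from its group mean over the genes tested, against at most 0.295 in the other libraries, and several results that rest on it are given with and without it. The 10 myotube marker genes were all expressed, with a summed level of 386813 to 493026 in all libraries. Myog, which encodes myogenin, was lower after stimulation (30613 in 5 % CTRL and 21265 in 5 % STIM, 19439 in 1 % CTRL and 12522 in 1 % STIM). Stimulation lowered 3 of the 10 markers under 5 % O2 and 2 under 1 % O2 and raised none. Of all genes, 12.0 % and 10.8 % were called lower, and 9.44 % and 11.5 % higher. With 1 % O2, 6 of the 10 were called lower and 1 higher in unstimulated myotubes (30.5 % and 29.4 % of all genes). The same counts were found in stimulated ones (28.4 % and 29.0 % of all genes). The part of these marker differences in the results below was not tested. Of 7 markers of other cell types, the defining genes Adipoq (fat), Ptprc (immune), Pecam1 and Cdh5 (endothelial) were at group means of at most 4.95. The fibroblast genes Pdgfra and Dpt and the macrophage gene Cd68 were detected, and the sum of the 7 was 239 to 321 in 1 % CTRL and 343 to 441 in the other groups. Markers of undifferentiated or cycling myoblasts summed to 5649 to 6678 under 5 % O2 and 6277 to 8074 under 1 % O2. The 9 genes did not move together. With 1 % O2, 4 were called higher and 4 lower unstimulated, beside 29.4 % and 30.5 % of all genes. In stimulated myotubes 3 were called higher and 3 lower, beside 29.0 % and 28.4 %. In bulk RNA, fewer cells of a type and less RNA per cell cannot be told apart.

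Promoter windows of 8 of the 10 genes were available from RefSeq (GRCm38.p6; 250 bases before to 50 bases after the start site that RefSeq gives the gene). This start can differ from the start of the GENCODE gene model. It is the same base for Trim63 and lies 75 bases downstream of the GENCODE start for Depp1, 257 downstream for Fbxo30, 21 upstream for Otud1 and 471 upstream for Irs2. The windows were searched on both strands for 2 motifs. The FoxO core element, GTAAACA, was held by 3.65 % of all 32851 windows. The insulin response element, with the letters CAAAACA, was held by 6.28 % of them. Otud1, Trim63 and Irs2 each held 1 match, and no match to these letters was found in the windows of Depp1, Foxo1, Foxo3, Klf15 and Fbxo30. Only these exact letters were searched. Variants with a changed letter, such as gtaaata in the Depp1 window, were not counted in any window. A window with no match, that of Depp1 included, may thus still hold a FoxO site in other letters. The share of 3.65 % covers GTAAACA alone. The windows of the genes with a match and of Depp1 are shown 5′ to 3′ in the direction of the gene, the first 3 for their matches and Depp1 as the gene the set was built around. Capitals mark the matches, which in Trim63 and Irs2 read on the opposite strand. In Trim63 (chr4:134314870-134315169, plus strand) the match begins 194 bases before the RefSeq start. In Otud1 (chr2:19657481-19657780, plus strand) it begins 28 bases before it. In Irs2 (chr8:11008880-11009179, minus strand) it begins 37 bases before it. Depp1 lies at chr6:116650434-116650733 on the plus strand. A match describes letters and is not a measured binding site.
Depp1: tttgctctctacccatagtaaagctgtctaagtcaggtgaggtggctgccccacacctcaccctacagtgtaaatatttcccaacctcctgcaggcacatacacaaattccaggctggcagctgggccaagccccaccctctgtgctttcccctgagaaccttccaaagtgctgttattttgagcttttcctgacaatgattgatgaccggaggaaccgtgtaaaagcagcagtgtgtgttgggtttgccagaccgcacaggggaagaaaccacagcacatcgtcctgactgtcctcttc
Trim63: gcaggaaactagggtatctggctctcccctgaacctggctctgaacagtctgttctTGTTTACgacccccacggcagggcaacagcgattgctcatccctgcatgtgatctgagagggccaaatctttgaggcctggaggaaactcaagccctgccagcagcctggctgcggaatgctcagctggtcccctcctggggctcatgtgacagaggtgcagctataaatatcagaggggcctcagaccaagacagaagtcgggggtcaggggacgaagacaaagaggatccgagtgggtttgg
Otud1: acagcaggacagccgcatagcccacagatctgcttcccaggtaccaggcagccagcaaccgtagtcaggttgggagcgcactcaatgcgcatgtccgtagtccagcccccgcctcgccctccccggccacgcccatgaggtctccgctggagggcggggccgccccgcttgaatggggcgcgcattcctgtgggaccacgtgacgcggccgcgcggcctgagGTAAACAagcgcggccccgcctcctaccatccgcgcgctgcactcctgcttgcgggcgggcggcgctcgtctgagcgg
Irs2: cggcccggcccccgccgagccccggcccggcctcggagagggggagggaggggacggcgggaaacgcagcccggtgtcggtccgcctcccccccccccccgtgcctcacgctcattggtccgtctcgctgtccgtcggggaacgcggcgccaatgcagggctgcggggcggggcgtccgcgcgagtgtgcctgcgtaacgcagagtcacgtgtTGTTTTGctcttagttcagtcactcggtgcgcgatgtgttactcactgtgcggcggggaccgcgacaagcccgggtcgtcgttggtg

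Depp1 (ENSMUSG00000048489; GRCm38, chromosome 6, 116650609 to 116652794, plus strand, 2 exon blocks; protein coding) stood at 340 to 452 normalized reads in 5 % CTRL (median 394) and at 87.9 to 127 in 5 % STIM (median 94.9). With 1 % O2 it stood at 323 to 435 in 1 % CTRL (median 413) and at 134 to 171 in 1 % STIM (median 153). The stimulated and unstimulated libraries did not overlap under either O2 level. The mean was 3.97-fold lower in stimulated myotubes under 5 % O2 (log2 fold change −1.98, SE 0.09) and 2.64-fold lower under 1 % O2 (−1.40, SE 0.09). Since Depp1 was chosen on this response, these values are a description and carry no test. Of the 10799 genes whose mean reached 100 in 1 of the groups it ranked second by its fall under 5 % O2. The gene just ahead, Rpl15-ps3 (−3.66), and the gene just behind, Rpl36a-ps3 (−1.91), are pseudogenes, and 100 % and 69.6 % of their 75-base words of exon sequence also occur in transcripts of other genes, so their counts are uncertain. It ranked sixth under 1 % O2, of 10902 genes.

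The 4 levels of Depp1 were ordered as 1 % CTRL (403 ± 40.7, SD), 5 % CTRL (390 ± 41.8), 1 % STIM (152 ± 15.7) and 5 % STIM (98.2 ± 14.5), with n = 6 each. The first 2 did not differ beyond their spread, and the other neighbours in this order did not overlap. Without replicate 1 of 1 % CTRL, the lowest library of its group at 323, the response under 1 % O2 was −1.46.

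**Figure D1:**
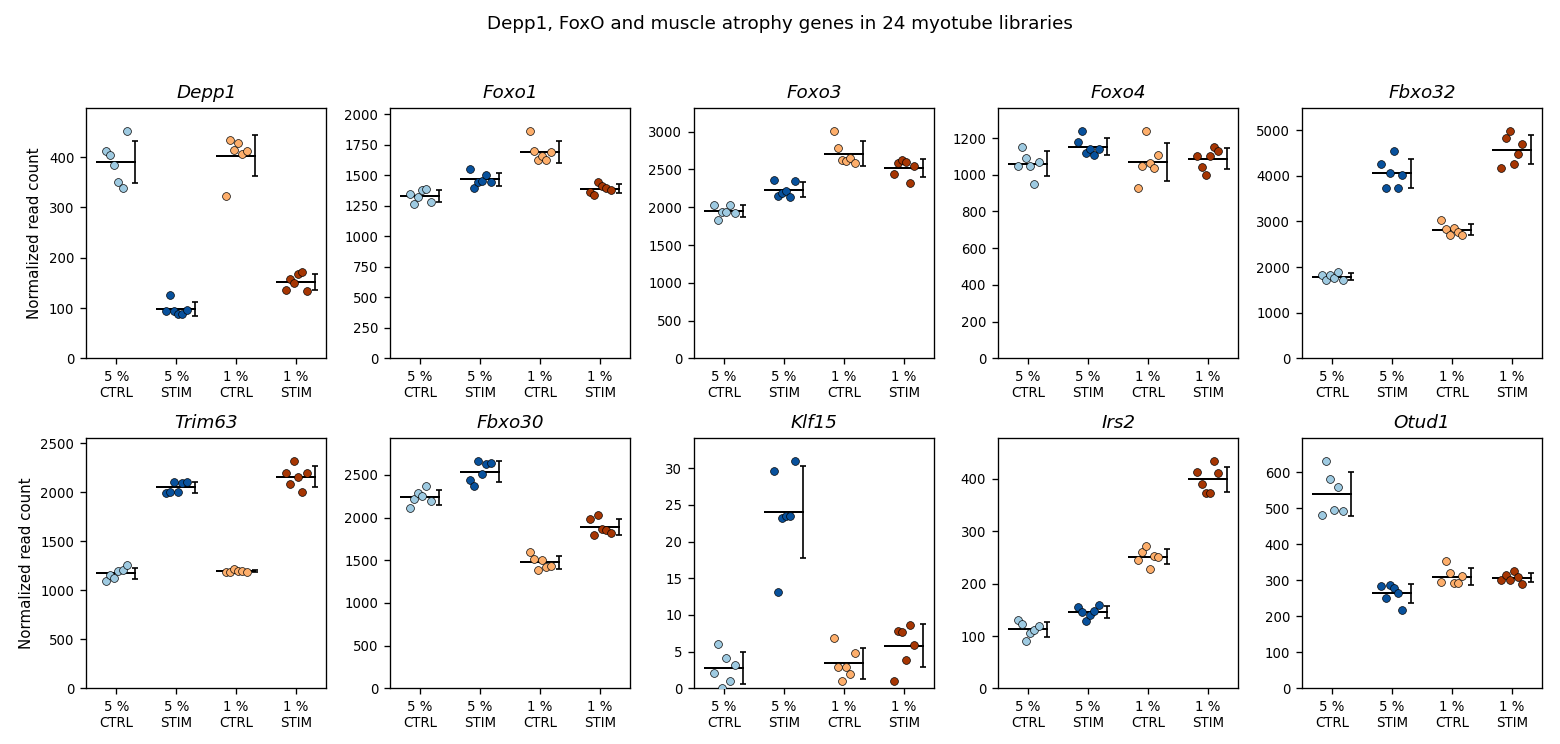
Normalized read count (vertical axes, from 0) of the 10 genes in each of the 4 groups (horizontal axes). Points are libraries (6 per group), lines are means and bars are SD. Depp1 sat at 87.9 to 127 in 5 % STIM against 340 to 452 in 5 % CTRL, whereas Trim63 and Fbxo32 were higher in all stimulated libraries than in the unstimulated libraries at the same O2 level.

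The FoxO factors themselves changed little with stimulation. Foxo1 was at 1267 to 1386 in 5 % CTRL (median 1335) and 1397 to 1552 in 5 % STIM (median 1452), a small rise with no overlap of the groups (log2 fold change 0.14, SE 0.04, limma adjusted p = 0.00333). It went the other way under 1 % O2, from 1622 to 1865 in 1 % CTRL (median 1676) down to 1341 to 1443 in 1 % STIM (median 1388), again with no overlap (−0.28, SE 0.04, adjusted p = 1.02e-07). Replicate 1 of 1 % CTRL was the highest library at 1865, and without it the fall was −0.26. Foxo3 rose under 5 % O2, from 1827 to 2031 (median 1938) to 2141 to 2354 (median 2201), with no overlap (0.20, SE 0.04, adjusted p = 0.000194). The levels with 1 % O2 were 2586 to 3011 unstimulated (median 2639) and 2315 to 2621 stimulated (median 2566), and the groups overlapped. This fall (−0.11, SE 0.04) passed narrowly (adjusted p = 0.0405) and was no longer called without replicate 1 of 1 % CTRL (−0.08, adjusted p = 0.118), without any of 3 other libraries of that comparison or under 3 other settings. Foxo4 was at 950 to 1153, 1110 to 1239, 927 to 1237 and 1001 to 1149 in 5 % CTRL, 5 % STIM, 1 % CTRL and 1 % STIM, and it was not called with stimulation under 5 % O2 (0.12, 95 % interval 0.02 to 0.23, adjusted p = 0.0796) or 1 % O2 (0.03, −0.08 to 0.13, adjusted p = 0.773). Under 5 % O2 it was called when libraries were rescaled to the same total (0.15, adjusted p = 0.0286). Reads of Foxo1 are partly uncertain, because 7.78 % of its exon bases overlap the antisense gene Gm20402 and the counting is not stated to use strand.

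The classical atrophy ligases rose with stimulation, in the direction opposite to Depp1. Fbxo32, which encodes the substrate-binding F-box protein atrogin-1, was at 1718 to 1890 in 5 % CTRL (median 1794) and 3723 to 4555 in 5 % STIM (median 4034). It was at 2705 to 3032 in 1 % CTRL (median 2803) and 4168 to 4985 in 1 % STIM (median 4590). Stimulated libraries lay above unstimulated ones without overlap at each O2 level, with means 2.26-fold higher under 5 % O2 (log2 fold change 1.18, SE 0.05, adjusted p = 3.77e-19) and 1.62-fold higher under 1 % O2 (0.69, SE 0.05, adjusted p = 1.09e-13). Trim63, which encodes the RING-type ligase MuRF1 that targets thick-filament proteins, was at 1098 to 1261 in 5 % CTRL (median 1176) and 1998 to 2103 in 5 % STIM (median 2050). Its range was 1188 to 1220 in 1 % CTRL (median 1194) and 2001 to 2321 in 1 % STIM (median 2180). The rise was nearly equal under 5 % O2 (1.75-fold, 0.81, SE 0.03, adjusted p = 8.12e-19) and 1 % O2 (1.81-fold, 0.85, SE 0.03, adjusted p = 1.85e-19). Fbxo30, the F-box gene also called MUSA1, rose less. It went from 2107 to 2365 (median 2232) to 2363 to 2659 (median 2565) under 5 % O2, where the groups just overlapped (0.18, SE 0.04, adjusted p = 0.000565). Under 1 % O2 it went from 1389 to 1596 (median 1462) to 1798 to 2030 (median 1862), without overlap (0.36, SE 0.04, adjusted p = 3.96e-09). Of the exon bases of Fbxo32, 2.67 % overlap the antisense gene Gm15943.

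Klf15, a Krüppel-like factor induced by glucocorticoids and known to act with them on muscle protein breakdown, was barely detected except in 5 % STIM. It was at 0 to 6.10 normalized reads in 5 % CTRL (median 2.61), 13.2 to 31 in 5 % STIM (median 23.5), 0.952 to 6.89 in 1 % CTRL (median 2.88) and 0.974 to 8.66 in 1 % STIM (median 6.78). Its totals over 6 libraries were 16, 141, 21 and 36 reads. Klf15 reached the minimum of 10 reads only in the 6 libraries of 5 % STIM, so it entered the fit through the group where it was high, and its differences are given as a description with no test. The mean was 8.77-fold higher in 5 % STIM than in 5 % CTRL (log2 fold change 2.96, SE 0.43), without overlap of the groups, and under 1 % O2 the groups overlapped (0.60, 95 % interval −0.27 to 1.47). With a pseudocount of 10 in place of 1, its fold change under 5 % O2 was 1.41.

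Irs2, an adaptor that passes the insulin signal from its receptor to PI3K and whose transcription FoxO factors raise in liver, rose with stimulation at both O2 levels. It was at 90.1 to 131 in 5 % CTRL (median 115) and 128 to 160 in 5 % STIM (median 147), with the groups just overlapping (0.38, SE 0.08, adjusted p = 0.00032). It was at 228 to 272 in 1 % CTRL (median 252) and 373 to 434 in 1 % STIM (median 401), without overlap (0.66, SE 0.08, adjusted p = 1.81e-08). Of its exon bases, 2.56 % overlap 9530052E02Rik on the opposite strand.

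Otud1, a deubiquitinase gene, was the only other gene of the set lower after stimulation under 5 % O2. It stood at 481 to 631 in 5 % CTRL (median 526) and 219 to 286 in 5 % STIM (median 271), with no overlap, and its mean was 2.05-fold lower (log2 fold change −1.03, SE 0.07, adjusted p = 7.99e-14). Under 1 % O2 it stood at 292 to 352 in 1 % CTRL (median 303) and 290 to 326 in 1 % STIM (median 306). These groups overlapped, and no change was called (−0.02, 95 % interval −0.16 to 0.13, adjusted p = 0.917). The promoter window of Otud1 holds the same FoxO core letters as that of Trim63, letters found in 3.65 % of all windows. Whether they bear on the response of either gene was not tested.

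**Figure D2:**
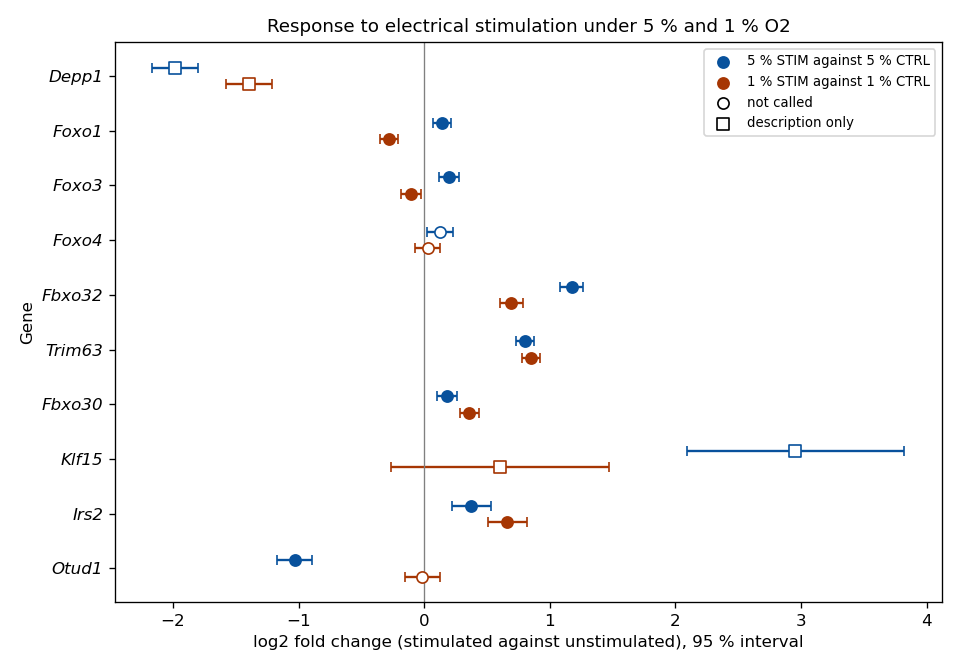
Log2 fold change of stimulated against unstimulated myotubes (horizontal axis) for the 10 genes (vertical axis) under 5 % O2 (blue) and 1 % O2 (brown), with 95 % intervals from limma. Filled points passed an adjusted p of 0.05, open circles did not, and open squares mark Depp1 and Klf15, which are given as a description only. Fbxo32 stands at 1.18 and 0.69 and Depp1 at −1.98 and −1.40.

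Calls were counted over the 8 genes other than Depp1 and Klf15. Of these 8, 6 were called higher and 1 lower after stimulation under 5 % O2. Over all genes tested, 9.44 % were called higher and 12.0 % lower. Under 1 % O2, 4 of the 8 were called higher and 2 lower, where 11.5 % of all genes were called higher and 10.8 % lower. When libraries were rescaled to the same total, calls over all genes were 62.1 % higher under 5 % O2, against 44.0 % before, and 62.4 % against 51.4 % under 1 % O2. That rescaling moved the median of all genes by under 0.1 (log2) in every comparison.

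The response to stimulation differed between 1 % and 5 % O2 for 5 of the 8 genes by the interaction term of the fit, which is the log2 response under 1 % O2 minus that under 5 % O2. It was higher for 2 genes and lower for 3, where 5.88 % of all genes were called higher and 5.43 % lower. The fall of Otud1 was seen under 5 % O2 and not under 1 % O2 (interaction 1.02, SE 0.10, adjusted p = 2.46e-09). Fbxo32 (−0.48, SE 0.06, adjusted p = 2.86e-06), Foxo1 (−0.42, SE 0.05, adjusted p = 1.87e-07) and Foxo3 (−0.30, SE 0.05, adjusted p = 0.000163) responded less positively under 1 % O2. Fbxo30 responded more (0.18, SE 0.05, adjusted p = 0.0269), a call that was lost when any of 6 libraries was left out (highest adjusted p = 0.0562) or when no filter was applied (adjusted p = 0.0573). The difference was not called for Trim63 (0.05, 95 % interval −0.05 to 0.15), Foxo4 (−0.10, −0.24 to 0.05) or Irs2 (0.29, 0.07 to 0.51, adjusted p = 0.0788), and that of Irs2 was called without replicate 3 of 5 % CTRL (0.35, adjusted p = 0.019). As a description, the response of Depp1 was 0.59 (SE 0.13) less negative under 1 % O2, and the interaction value of Klf15 was −2.35 (SE 0.60). Without replicate 1 of 1 % CTRL the Depp1 value was 0.53, and 2316 of all genes were called in the interaction, against 1645 with it.

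In unstimulated myotubes, Depp1 overlapped between 1 % and 5 % O2 (log2 fold change 0.05, 95 % interval −0.13 to 0.23). All 4 groups entered the choice of Depp1 through its response to stimulation, so its differences between O2 levels are also a description with no test. Of the 8 genes other than Depp1 and Klf15, 4 were called higher and 2 lower, but 29.4 % of all genes were called higher and 30.5 % lower in this comparison, so calls were common over the whole table. Irs2 was 2.23-fold higher (1.16, SE 0.08, adjusted p = 4.02e-15), Fbxo32 1.57-fold (0.65, SE 0.05, adjusted p = 5.72e-14), Foxo3 1.39-fold (0.48, SE 0.04, adjusted p = 6.35e-13) and Foxo1 1.27-fold (0.35, SE 0.04, adjusted p = 1.91e-10). Otud1 was 1.74-fold lower (−0.79, SE 0.07, adjusted p = 5.51e-12) and Fbxo30 1.52-fold lower (−0.60, SE 0.04, adjusted p = 1.93e-15). None of these 6 genes had overlapping groups. The share of all genes without overlap was not counted, so this does not mark the 6 genes out. Trim63, at 1098 to 1261 in 5 % CTRL and 1188 to 1220 in 1 % CTRL, was not called (0.03, 95 % interval −0.04 to 0.10), but was called after rescaling to the same total (0.11, adjusted p = 0.00681). Foxo4 was not called (0.01, −0.09 to 0.11), and Klf15 stood at 0.35 (−0.52 to 1.22). Without replicate 1 of 1 % CTRL, Depp1 stood at 0.11, and Foxo1 (0.32) and Foxo3 (0.45) were still called.

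In stimulated myotubes the mean of Depp1 was 1.55-fold higher in 1 % STIM than in 5 % STIM (0.63, SE 0.09), with the highest library of 5 % STIM at 127 and the lowest of 1 % STIM at 134. Leaving out any library of the comparison gave 0.60 to 0.71. Of the 8 other genes tested, 4 were called higher and 1 lower, where 29.0 % of all genes were called higher and 28.4 % lower. Irs2 was 2.73-fold higher (1.44, SE 0.08, adjusted p = 1.47e-17), and Otud1 (0.22, SE 0.07, adjusted p = 0.0061), Fbxo32 (0.17, SE 0.05, adjusted p = 0.0014) and Foxo3 (0.17, SE 0.04, adjusted p = 0.000199) were slightly higher, with overlapping groups for Fbxo32 and Foxo3. Fbxo30 was 1.34-fold lower (−0.42, SE 0.04, adjusted p = 1.81e-11). The mean of Klf15 was 4.13-fold lower (−2.0, SE 0.43), as a description. Foxo1 (−0.08, adjusted p = 0.0639), Foxo4 (−0.09, adjusted p = 0.148) and Trim63 (0.07, adjusted p = 0.0666) were not called in this fit. Foxo1 was called without replicate 3 of 1 % STIM (adjusted p = 0.0442) or replicate 2 of 5 % STIM (adjusted p = 0.0361). Trim63 was called without replicate 5 of 1 % STIM (adjusted p = 0.0188), after rescaling to the same total (0.14, adjusted p = 0.00059), by edgeR (adjusted p = 0.0465) and by limma voom (adjusted p = 0.0386). After that rescaling, the calls over all genes that were higher went from 49.0 % to 62.7 % in the unstimulated comparison and from 50.4 % to 63.2 % in the stimulated one.

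**Figure D3:**
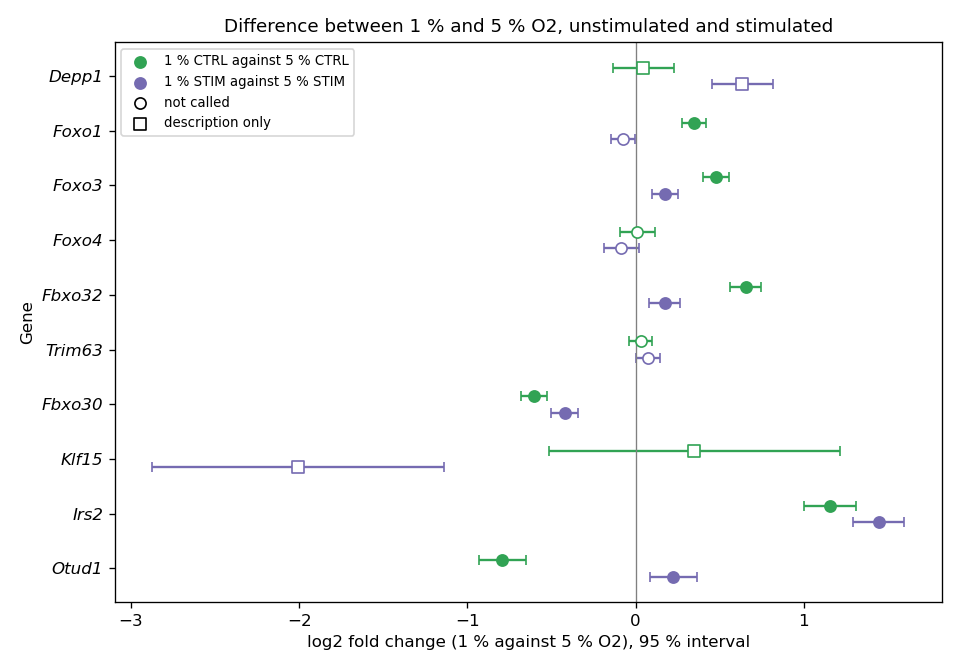
Log2 fold change of 1 % against 5 % O2 (horizontal axis) for the 10 genes (vertical axis) in unstimulated (green) and stimulated (purple) myotubes, with 95 % intervals from limma. Filled points passed an adjusted p of 0.05, open circles did not, and open squares mark Depp1 and Klf15, given as a description only. Depp1 stands at 0.05 unstimulated and 0.63 stimulated, Irs2 at 1.16 and 1.44, and Otud1 at −0.79 and 0.22.

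Other known FoxO targets were asked the same question, from a list drawn up with earlier results of these data known. Of 24 listed, 20 were tested. After stimulation under 5 % O2, 14 were called higher and 2 lower, with a median log2 fold change of 0.23 against −0.01 over all genes tested. Of all genes, 9.44 % were called higher and 12.0 % lower in that comparison, and 11.5 % and 10.8 % under 1 % O2. Under 1 % O2, 14 were called higher and 3 lower (median 0.22 against 0.00 at 2 decimals for all genes). The 3 lower calls fell to 1 without replicate 2 of 1 % STIM or after rescaling to the same total. The largest rises were in Pik3ip1, an inhibitor of PI3K (57.3 in 5 % CTRL, 145 in 5 % STIM, 106 in 1 % CTRL and 322 in 1 % STIM; log2 fold change 1.33 and 1.59). Bcl2l11, which encodes the pro-death protein BIM, went from 132 to 269 and from 102 to 279 (1.02 and 1.44). Pdk4, a kinase that restrains the entry of pyruvate into the mitochondria's citric acid cycle, went from 891 to 1666 and from 405 to 1192 (0.89 and 1.56). Bbc3, which encodes PUMA (0.68 and 1.05), and Sesn1, a stress-induced inhibitor of mTORC1 (0.55 and 0.90), rose as well. All 5 had an adjusted p of at most 0.000527. The genes lower after stimulation were Txnip, an inhibitor of thioredoxin (−0.42, adjusted p = 6.67e-11, and −0.17, adjusted p = 0.000667), and Klf2, an endothelial and lymphocyte Krüppel-like factor (−0.62, adjusted p = 0.000167, and −0.32, adjusted p = 0.0497). Cdkn1a, which encodes the cell cycle inhibitor p21, was called lower under 1 % O2 alone (−0.11, adjusted p = 0.0175). Txnip and Cdkn1a are outside the rule for named genes and were added after their values were seen.

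With 1 % O2 in place of 5 % O2, 5 of the same 20 targets were called higher and 9 lower in unstimulated myotubes, beside 29.4 % and 30.5 % of all genes. In stimulated ones 6 were higher and 7 lower, beside 29.0 % and 28.4 %. Ccng2, which encodes cyclin G2, was 1.77 (log2) higher unstimulated and 1.22 higher stimulated, and Cdkn1b, which encodes the cell cycle inhibitor p27, 1.09 and 0.97 higher. Pdk4 fell by 1.14 and Gadd45a, a DNA damage gene, by 0.77 in unstimulated myotubes. Each of these had an adjusted p of at most 2.67e-07. Reads of Gadd45a are partly uncertain, since 13.9 % of its words are shared with E230016M11Rik.

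Of 17 other genes of muscle atrophy and ubiquitin, 16 were tested. Stimulation raised 4 and lowered 1 under 5 % O2 and raised 4 and lowered none under 1 % O2, with medians of 0.01 and 0.03. Over all genes, 9.44 % were called higher and 12.0 % lower under 5 % O2, and 11.5 % and 10.8 % under 1 % O2. The 1 lower gene, Nedd4, a ubiquitin ligase (−0.11, adjusted p = 0.0213), was not called without replicate 5 of 5 % CTRL (adjusted p = 0.0532), without replicate 2 of 5 % STIM (0.0545) or after rescaling to the same total (0.0904). Without replicate 1 of 1 % CTRL, 2 genes of the list were called lower under 1 % O2. Zfand5, a zinc-finger protein that activates the proteasome, rose at both O2 levels (0.36, adjusted p = 3.05e-10, and 0.62, adjusted p = 2.53e-16). Acvr2b, a receptor of myostatin and activin, was low (13.4, 22.4, 24.6 and 38.1 in 5 % CTRL, 5 % STIM, 1 % CTRL and 1 % STIM), and its rises (0.65, adjusted p = 0.0169, and 0.60, adjusted p = 0.028) were no longer called without any of several single libraries. Fbxo40, a muscle F-box gene whose protein targets IRS1, rose under 5 % O2 (1579 to 2116; 0.42, adjusted p = 5.8e-08) and stood at 1177 and 1196 under 1 % O2. With 1 % O2, 4 were called higher and 8 lower unstimulated (29.4 % and 30.5 % of all genes) and 4 higher and 6 lower stimulated (29.0 % and 28.4 % of all genes). Tnfrsf12a, the receptor of TWEAK, fell by 1.00 and 1.07 and Cblb, a ubiquitin ligase, by 0.68 and 0.58, whereas Fbxo21 was 0.68 and 0.58 higher. The highest adjusted p of these was 6.45e-09.

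All 15 autophagy genes listed were tested. Stimulation raised 5 and lowered none under 5 % O2 (median 0.05) and raised 5 and lowered 3 under 1 % O2 (median 0.03). Of all genes, 9.44 % were called higher and 12.0 % lower under 5 % O2, and 11.5 % and 10.8 % under 1 % O2. Sqstm1, which encodes the autophagy receptor p62, rose by 0.47 at both O2 levels (8092 to 11245 and 6802 to 9429). Gabarapl1, an ATG8-family gene, rose by 0.46 and 0.54, and Atg14, a subunit of the PI3-kinase complex that starts autophagy, by 0.19 and 0.38. The mitophagy receptor genes Bnip3 and Bnip3l, which hypoxia is known to induce, were 1.19 and 0.62 higher in 1 % CTRL than in 5 % CTRL and were lower in 1 % STIM than in 1 % CTRL (−0.43 and −0.28). The highest adjusted p of these values was 0.0102. With 1 % O2, 3 of the 15 were called higher and 7 lower unstimulated, beside 29.4 % and 30.5 % of all genes, and 5 were higher and 7 lower stimulated, beside 29.0 % and 28.4 %. After rescaling to the same total, 2 were called lower unstimulated. Between 14.6 % and 34.4 % of the words of Sqstm1, Gabarapl1, Bnip3l and Bnip3 are shared with other genes or pseudogenes, so their levels are partly uncertain.

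Of the 14 genes of insulin, IGF1, PI3K and AKT signalling, 4 were called higher and 3 lower (1 after rescaling to the same total or without replicate 3 of 5 % CTRL) with stimulation under 5 % O2, and 5 higher and none lower under 1 % O2, with medians of 0.01 and 0.00 at 2 decimals. The shares of all genes were 9.44 % higher and 12.0 % lower under 5 % O2, and 11.5 % and 10.8 % under 1 % O2. Sgk1, a kinase related to AKT that phosphorylates FoxO factors, rose most, from 2344 to 3962 and from 1381 to 2521 (0.76, adjusted p = 1.08e-16, and 0.87, adjusted p = 2.19e-18). Irs1, the other main insulin receptor adaptor in muscle, fell under 5 % O2 (−0.38, adjusted p = 4.76e-07) and rose under 1 % O2 (0.18, adjusted p = 0.00703). Of its words, 30.3 % are shared with Gm9747. With 1 % O2, 5 were called higher and 6 lower unstimulated (29.4 % and 30.5 % of all genes) and 5 higher and 5 lower stimulated (29.0 % and 28.4 % of all genes). Igf1r, the IGF1 receptor gene, was 0.62 and 0.50 higher, and Sgk1 was lower (−0.76 and −0.65). The highest adjusted p of these was 6.36e-14.

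Among 11 cofactors and regulators of FoxO proteins, stimulation raised 1 and lowered 4 under 5 % O2 (median −0.08) and raised 4 and lowered 1 under 1 % O2 (median −0.02). Over the whole table, 9.44 % were called higher and 12.0 % lower under 5 % O2, and 11.5 % and 10.8 % under 1 % O2. The 4 lower calls went to 2 after rescaling to the same total, with no filter, and without replicate 4 or 6 of 5 % CTRL or replicate 1, 3 or 4 of 5 % STIM. Sirt1, a deacetylase of FoxO proteins, rose at both O2 levels (0.22, adjusted p = 0.00134, and 0.54, adjusted p = 1.1e-10). It was lower in 1 % CTRL than in 5 % CTRL (−0.84, adjusted p = 2.05e-16), where 7 of the 11 were lower and none higher, beside 30.5 % and 29.4 % of all genes, with a median of −0.22. In stimulated myotubes 2 were higher and 7 lower with 1 % O2, beside 29.0 % and 28.4 %.

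Of 11 genes of the glucocorticoid receptor and its targets, 10 were tested. Stimulation raised 5 and lowered 1 under 5 % O2 (median 0.19) and raised 4 and lowered 1 under 1 % O2 (median 0.07). Among all genes, 9.44 % were called higher and 12.0 % lower under 5 % O2, and 11.5 % and 10.8 % under 1 % O2. Tsc22d3, which encodes GILZ, rose by 0.59 and 0.37 and Klf9 by 0.29 and 0.35, while Errfi1, an inhibitor of the EGF receptor, fell by 0.49 and 0.54. The highest adjusted p of these was 1.02e-06. With 1 % O2, 4 were called higher and 6 lower unstimulated (29.4 % and 30.5 % of all genes) and 3 higher and 6 lower stimulated (29.0 % and 28.4 % of all genes). Errfi1 was lower (−1.89 and −1.95), the largest differences of any listed gene in these comparisons, and Per1, a clock gene, was 0.74 and 0.68 higher (adjusted p at most 8.57e-11). Sgk1 belongs to this list and to that of insulin signalling. Insr, the insulin receptor gene, belongs to the lists of insulin signalling and of other FoxO targets, so both genes were counted in each of their lists.

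**Figure D4:**
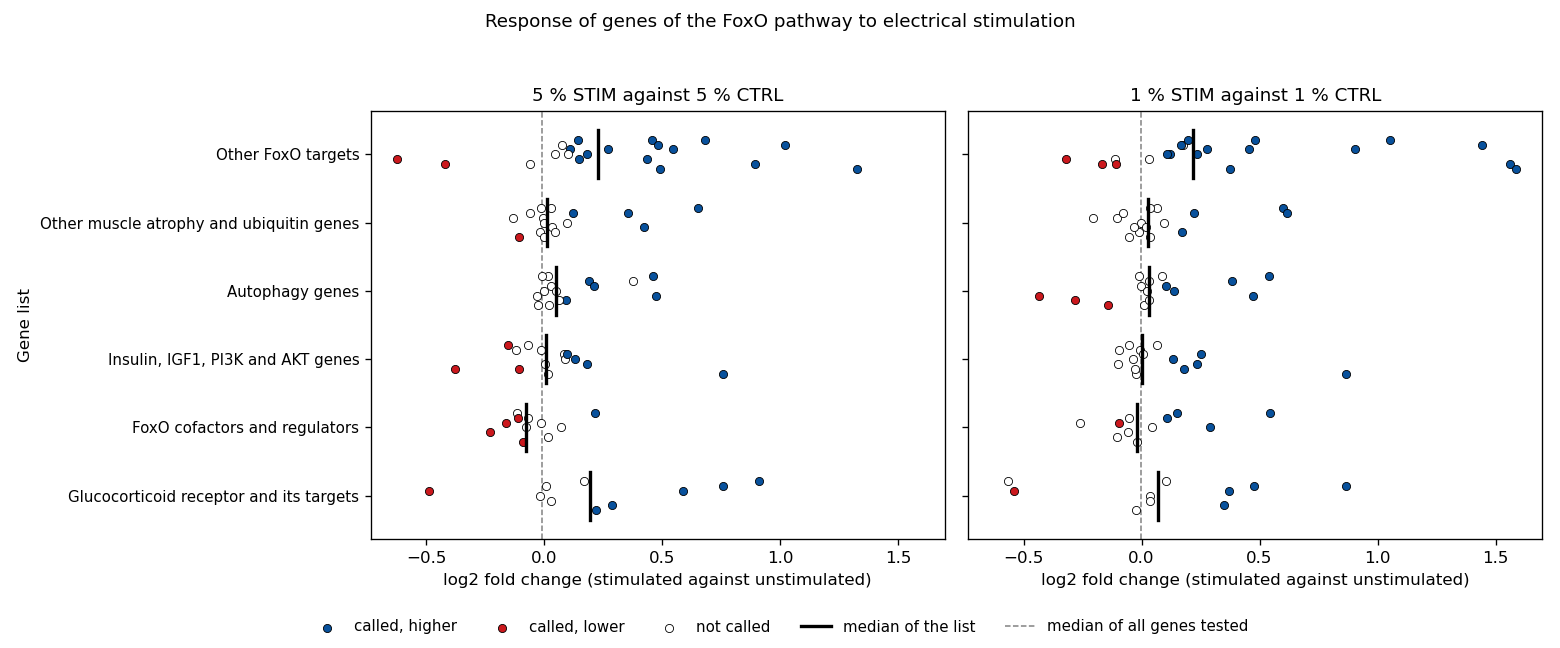
Log2 fold change with stimulation (horizontal axes) of the tested genes of 6 lists (rows) under 5 % O2 (left) and 1 % O2 (right). Points are genes, blue for called higher, red for called lower and white for not called; black bars are list medians and the dashed line is the median of all genes tested. The other FoxO targets have a median of 0.23 and 0.22, the highest of the lists in each panel.

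The genes most like Depp1 over the 24 libraries were sought among 10794 genes whose mean over all libraries reached 100, by Pearson's r of log2 values. They were Gramd4 (r = 0.965), Phactr4 (0.947), Dnajb5 (0.940), Edn1 (0.930) and Cdc42ep3 (0.925). Gramd4 was at 1520, 981, 1470 and 1035 in 5 % CTRL, 5 % STIM, 1 % CTRL and 1 % STIM, and Edn1, which encodes endothelin-1, at 369, 217, 423 and 269. Among the genes of the set, Otud1 had the highest r with Depp1 (0.65) and Trim63 the lowest (−0.93), with Fbxo32 at −0.81, Klf15 at −0.76 and Fbxo30 at −0.59. Foxo1 (0.17), Foxo3 (−0.04), Irs2 (−0.15) and Foxo4 (−0.36) lay between. These values describe 4 groups of 6 libraries that share their treatments, and are given with no test.

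Levels of different genes were compared per kb of exon. In 5 % CTRL, Fbxo30 and Trim63 were the highest, at 431 ± 16.8 and 413 ± 20.7 normalized reads per kb (SD, n = 6), and these 2 lay within their spread of each other. Foxo4 (304 ± 19.2), Depp1 (287 ± 30.8), Foxo3 (257 ± 10) and Fbxo32 (257 ± 9.68) followed, then Otud1 (191 ± 21.2), Foxo1 (154 ± 5.58), Irs2 (17.9 ± 2.26) and Klf15 (0.980 ± 0.789). Foxo4 and Depp1 were within their spread of each other, as were Foxo3 and Fbxo32. In 5 % STIM the order was led by Trim63 (722 ± 19.1), Fbxo32 (581 ± 45.6) and Fbxo30 (488 ± 23.6), and Depp1 was at 72.3 ± 10.7, below Otud1 (93.0 ± 9.16). In 1 % CTRL Trim63 (421 ± 4.14) and Fbxo32 (404 ± 17.7) led, with Depp1 at 297 ± 30.0. In 1 % STIM Trim63 (761 ± 38.3) and Fbxo32 (655 ± 46) led, and Depp1 (112 ± 11.6) was within its spread of Otud1 (108 ± 4.48). Klf15 had the lowest level per kb in every group.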

How the data were processed

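RNA from 24 cultures of C2C12 myotubes (4 groups of 6) was made into stranded mRNA libraries. Per the submitters' processing notes, reads were checked with FastQC 0.11.7, aligned with STAR 2.5.4b and counted per gene with RSEM 1.3.0 on GRCm38. The expression signal the authors deposited is the gene count divided by a DESeq2 size factor, for 55487 genes. A second deposited table of the authors' own fold changes and p-values was not used. Groups were taken from the labels.

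The 14541 genes that reached 10 normalized reads in 6 or more of the 24 libraries were tested. Values entered as log2(normalized count + 1) into a single limma model of all groups (eBayes with trend and robust; limma 3.58.1, R 4.3.3), with Benjamini-Hochberg adjustment. Whole reads were recovered from the steps between values (100 % whole within 0.01 read) for edgeR 4.0.16 (quasi-likelihood), DESeq2 1.42.0 and limma voom as alternatives. Libraries held 26541858 to 28173745 reads, so a gene at the minimum rests on about 10 reads. Intervals are at 95 %.

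The genes and lists were chosen with earlier results of these data known. Depp1, chosen on its response, and Klf15, which passed the filter only through 5 % STIM, stayed in the fit but are reported with no test and left out of counts of calls, a decision made after seeing the data; tests of both had been planned for some comparisons. Named genes are the 10 of the set, up to 5 called genes with the largest change per list and comparison, and the 5 most like Depp1. Gene models came from GENCODE M21; exon sequence was compared in words of 75 bases. The scripts were tested on simulated data.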

Additional observations from a re-analysis of the deposited data

Results flagged for a closer look

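In 40 groups of 6 libraries (10 genes in 4 groups), 4 held a library far from the others by Dixon's test, and chance flags about 1 in 20 groups. They were replicate 2 of 5 % STIM for Depp1 (127, high), replicate 1 of 1 % CTRL for Depp1 (323, low) and for Foxo1 (1865, high), and replicate 3 of 1 % CTRL for Trim63 (1220, high).

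The response to stimulation differed between O2 levels by the limma interaction (1 % minus 5 % O2, log2) for Foxo1 (−0.42), Foxo3 (−0.30), Fbxo32 (−0.48), Fbxo30 (0.18) and Otud1 (1.02), as given above; that of Klf15 (−2.35) is a description, since Klf15 passed the filter only through 5 % STIM. Among the listed FoxO targets it differed for Pdk4 (0.66), Bcl2l11 (0.42), Sesn1 (0.36), Ccng2 (−0.55) and Eif4ebp1 (−0.31), and also for Txnip (0.25) and Bcl6 (0.17), which are outside the rule for named genes. Among atrophy and autophagy genes it differed for Fbxo40 (−0.40), Zfand5 (0.26), Bnip3 (−0.40) and Bnip3l (−0.37). In insulin signalling it differed for Irs1 (0.55), Pik3ca (0.15) and Phlpp1 (0.22). Of the 11 cofactors and regulators, Sirt1 (0.33), Ep300 (0.22), Crebbp (0.27), Mdm2 (0.22) and Prkaa1 (0.17) responded more positively under 1 % O2, and 6 were not called. Over all genes, 5.88 % were called higher and 5.43 % lower in the interaction. Of the glucocorticoid genes Dusp1 was higher (0.47) and Nr3c1 (−0.24), Tsc22d3 (−0.22) and Cebpd (−1.47) were lower. Cebpd was low, at 24.6, 45.9, 47.5 and 32.3 in 5 % CTRL, 5 % STIM, 1 % CTRL and 1 % STIM. Of its words, 13.1 % are shared with Spidr. The highest adjusted p of the listed genes here was 0.0412 (Pik3ca). The calls of Eif4ebp1, Pik3ca and Phlpp1 were each lost when certain single libraries were left out.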

How the results depend on the processing

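All 222 alternative counts of called genes, over the whole table and over the set with Klf15 and, between O2 levels, Depp1 included, stayed within 1.5 times the values given. Over all alternatives, 7 to 8, 5 to 6, 6 to 7 and 5 to 6 of the 8 genes without Depp1 and Klf15 were called for stimulation under 5 % O2, under 1 % O2, and for 1 % O2 unstimulated and stimulated, and 4 to 6 for the interaction. Of 1109 alternative values of single genes, 1077 kept direction and call, 11 gained a call, 14 lost it and 7, all of uncalled values near 0, changed sign. Otud1 with stimulation under 1 % O2 came to 0.0058 after rescaling to the same total, 0.022 without replicate 2 of 1 % CTRL and 0.0012 without replicate 6 of 1 % STIM. Foxo4 with stimulation under 1 % O2 came to −0.013 without replicate 1 of 1 % CTRL, and Foxo4 with 1 % O2 unstimulated to −0.033 and −0.00047 without replicates 3 and 6 of 1 % CTRL and −0.021 without replicate 5 of 5 % CTRL; leaving out 1 library gave at most 0.070 and 0.051 in these 2 comparisons. The causes were not tested. The calls lost were those of Foxo3 with stimulation under 1 % O2, also without replicate 2 of 1 % CTRL (adjusted p = 0.0859) and replicates 1 (0.0848) and 5 (0.134) of 1 % STIM, with no filter (0.0806), in a fit of the 2 groups alone (0.0701) and after rescaling (0.0948), and of Fbxo30 in the interaction, without replicates 3 and 5 of 1 % CTRL, 5 of 5 % CTRL, 1 and 3 of 1 % STIM and 2 of 5 % STIM (adjusted p = 0.0508 to 0.0573, with no filter included). Foxo4 gained a call with stimulation under 5 % O2 in a fit of the 2 groups alone (adjusted p = 0.0387) and without replicate 2 of 5 % CTRL (0.041). With a pseudocount of 10 the Klf15 values were 1.41 (stimulation, 5 % O2), −1.11 (1 % O2, stimulated) and −1.18 (interaction). The other FoxO targets called higher numbered 13 to 15 under 5 % O2 and 12 to 15 under 1 % O2 over all alternatives, and 14 under 1 % O2 without replicate 1 of 1 % CTRL, and those called lower 2 and 1 to 3. Of the cofactors, 0 to 2 were called lower with stimulation under 1 % O2 and 0 to 3 higher with 1 % O2 unstimulated, and of the atrophy genes 3 to 6 and 4 to 8 were higher with 1 % O2 unstimulated and stimulated. The genes tested were kept fixed when libraries were left out.

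The groups share replicate numbers, but the numbers did not pair the libraries: the deviations of 36 same-numbered pairs correlated at −0.148 to 0.155, 2 over 0.1, and 7 of 24 libraries were best correlated with their own number. With a replicate block, 3190, 3320, 8730, 8350 and 1710 genes were called in the 5 comparisons, against 3115, 3245, 8708, 8346 and 1645, and the block changed no call of the set.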
